A study of Mus musculus with 4 samples.

Results

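The Zbtb genes encode transcription factors that join an N-terminal BTB domain to C-terminal Krüppel-type zinc fingers. The members described here are the genes whose symbol is Zbtb followed by a number and at most 1 lower-case letter, on probe sets (groups of array probes read as 1 value) that carry a single gene symbol. That rule uses names only, and it found 40 of the 19938 genes measured. They had 43 probe sets in all, and a gene with several was represented by the probe set of highest mean over all arrays. The overlapping or opposite-strand genes Zbtb8os and Zbtb11os1 carry related names but are not BTB zinc finger genes and lie outside the rule.

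The samples were mouse E14 embryonic stem cells, a cell line kept with serum and leukemia inhibitory factor on primary embryonic fibroblasts that had been stopped from dividing with mitomycin-C. Cells exposed to 0.5 mM valproic acid (VPA), an inhibitor of histone deacetylases, for 4 h gave 2 arrays, and untreated cells gave 2 arrays. Total RNA was measured on 1-colour Affymetrix arrays, to ask what a low dose of the inhibitor does to gene expression within hours. The labels call the arrays of a group replicates without saying that they came from separate cultures, so the spread behind the p-values may be technical.

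In a BTB zinc finger protein the fingers recognise a DNA sequence, while the BTB domain forms dimers and, in many members, docks corepressor complexes. Those complexes include NCoR and SMRT, BCOR and Sin3, several of which carry class I histone deacetylases, the enzymes that VPA inhibits. The family is best known for setting cell fate in blood, germ line and brain, and some members bind methylated DNA.

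Across the 40 genes, differences between VPA and untreated cells were small and went in both directions. Zbtb18, a repressor needed for the development of cortical neurons, stood 1.75-fold higher with VPA. Its untreated level lay under Cd3e, the highest of 8 blood and lymphoid markers used here as a yardstick for background. It lay above Cd8a, the second highest. Zbtb34 and Zbtb38 were also higher, while Zbtb2, Zbtb7a, Zbtb45, Zbtb21 and Zbtb16 were lower, each by under 1.5-fold on the probe set that represents the gene. None of the 40 passed limma's test after Benjamini-Hochberg adjustment, in which 0 of 35556 probe sets (0% of those tested) reached the threshold and the lowest adjusted p was 0.462. Before adjustment, 3 members were higher and 5 lower at a p under 0.05. Over all measured genes 5.9% were higher and 2.71% lower at that p, against 7.5% and 12.5% of the members.

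The 3 higher members and 1 of the lower ones have a RefSeq promoter that begins at the outermost annotated start of the gene. Their 250 bases before the start (build GRCm38.p6, each on the strand of its gene) are shown because these are the members of small p, and capitals mark GC boxes, GGGCGG on either strand, the motif of Sp1-like factors.
Zbtb18, chr1:177442101-177442350, plus strand: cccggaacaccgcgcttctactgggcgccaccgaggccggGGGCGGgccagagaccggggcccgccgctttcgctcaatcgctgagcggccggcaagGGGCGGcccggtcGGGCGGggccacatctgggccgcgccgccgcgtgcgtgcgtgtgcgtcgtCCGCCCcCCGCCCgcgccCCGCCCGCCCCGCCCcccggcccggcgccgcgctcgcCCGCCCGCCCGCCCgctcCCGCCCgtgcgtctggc
Zbtb34, chr2:33431325-33431574, minus strand: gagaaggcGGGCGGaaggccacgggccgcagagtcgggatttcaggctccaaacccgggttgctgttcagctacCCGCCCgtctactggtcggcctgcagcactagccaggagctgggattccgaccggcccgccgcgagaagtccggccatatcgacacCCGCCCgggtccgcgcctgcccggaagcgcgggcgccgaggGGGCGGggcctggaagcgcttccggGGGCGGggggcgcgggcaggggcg
Zbtb38, chr9:96731676-96731925, minus strand: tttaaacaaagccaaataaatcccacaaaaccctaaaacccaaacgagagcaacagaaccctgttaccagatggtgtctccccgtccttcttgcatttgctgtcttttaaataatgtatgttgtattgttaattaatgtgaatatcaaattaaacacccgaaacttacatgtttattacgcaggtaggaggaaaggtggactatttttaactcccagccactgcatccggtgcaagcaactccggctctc
Zbtb2, chr10:4388109-4388358, minus strand: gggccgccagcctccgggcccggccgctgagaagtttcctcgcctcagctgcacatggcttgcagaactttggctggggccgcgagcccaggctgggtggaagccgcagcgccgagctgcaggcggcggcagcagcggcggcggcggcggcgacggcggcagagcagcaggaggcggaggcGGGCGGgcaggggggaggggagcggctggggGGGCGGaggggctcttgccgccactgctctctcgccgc
The Zbtb18 window held 47 CpG dinucleotides and 12 GC boxes, some of which overlap each other. Zbtb34 had 32 CpG and 5 GC boxes, and Zbtb2 had 28 CpG and 2 GC boxes. The Zbtb38 window held only 6 CpG and no GC box, and the long noncoding RNA gene E030011O05Rik overlaps it.

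The members' windows varied widely in base composition. Of the 40 members, 35 had a promoter entry, and the 250 bases before their most upstream listed start held a median of 22 CpG (0 to 47), against a median of 10 for 17491 protein-coding promoters. A GC box was present in 65.7% of the members' windows and in 42.7% of the protein-coding ones. The CCAAT motif occurred in 34.3% and 36.5%. The E-box CACGTG, bound by Myc and Max, occurred in 11.4% of member windows (Zbtb11, Zbtb21, Zbtb25 and Zbtb49) and in 6.65% of protein-coding windows. TCCTGCNA, a sequence that Kaiso (Zbtb33) binds, was present in 1 member window, that of Zbtb37, and in 3.88% of protein-coding windows. Every motif was searched on both strands. The CpG median was 32 for the 3 higher members and 27 for the 4 of 5 lower members that had an entry, so on these few windows CpG content did not separate the directions. These matches describe letters in a window and not sites of binding.

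Zbtb18 (probe set 10352092) read 5.50 and 5.57 on the VPA arrays, against 4.68 and 4.77 on the untreated arrays, as log2 signals. Both VPA values lay above both untreated ones, and the gap between the groups was far wider than the gap within either. The means were 5.53 ± 0.051 with VPA and 4.73 ± 0.064 in untreated cells (SD, n = 2 each), a difference of 0.81 ± 0.11 on the log2 scale (SE of the moderated fit; unadjusted p = 0.00078, adjusted p = 0.462 in limma). Its closest relative in the family is Zbtb42, which is known for a role at the neuromuscular junction. Zbtb42 was not higher, with 3.77 and 3.70 in VPA cells and 3.77 and 4.01 in untreated cells, a difference of −0.16 ± 0.13. Of the other members linked to neural or muscle tissue, Zbtb45, studied in glial cells, was lower: 6.53 and 6.64 with VPA, against 7.02 and 6.98 in untreated cells, without overlap (−0.42 ± 0.11, unadjusted p = 0.013, adjusted p = 0.485).

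**Figure D1:**
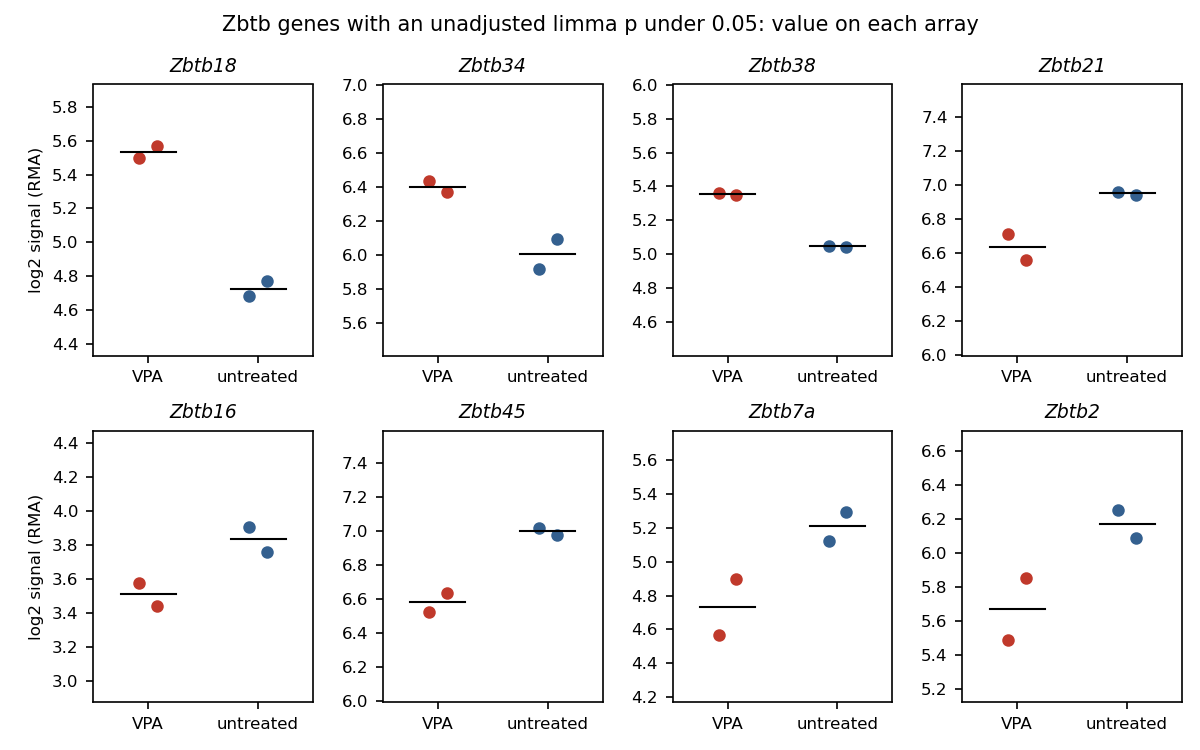
Log2 signal on each array (points) and group mean (line) for the 8 Zbtb genes with an unadjusted limma p under 0.05, VPA left and untreated right; each panel spans the same height on the log2 scale. In none of the 8 do the groups overlap, and Zbtb18 has the largest difference of means, 0.81.

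The methyl-CpG-binding members Zbtb33 (Kaiso), Zbtb38 and Zbtb4 read methylated DNA and link it to repression. Zbtb38 had 5.36 and 5.35 with VPA, against 5.05 and 5.05 in untreated cells. Its replicates lay almost on top of each other, and the groups were 0.31 ± 0.10 apart (unadjusted p = 0.032, adjusted p = 0.510). The unadjusted limma p of Zbtb38 was 0.054 after a second quantile normalization, 0.051 with trend and robust moderation and 0.071 with a replicate block. Zbtb33 had 6.57 and 6.77 in VPA cells, against 6.44 and 5.92 in untreated cells, a difference of 0.49 ± 0.20 that just missed an unadjusted p of 0.05 (unadjusted p = 0.065). That gap rests in good part on untreated replicate 2, the lower of the untreated values: without it the difference was 0.23. Zbtb4 lay low on the array and was slightly lower with VPA, at 3.58 and 3.55 against 3.73 and 3.68 in untreated cells (−0.14 ± 0.10). Among 5 other genes listed as methyl-CpG readers, 1 was higher and 1 lower at an unadjusted p under 0.05. Over all measured genes 5.9% were higher and 2.71% lower at that p. Mbd1 differed by 0.36 ± 0.11 (unadjusted p = 0.021), and Mbd3, a NuRD subunit that itself binds methylated DNA poorly, by −0.37 ± 0.14 (unadjusted p = 0.045). Without untreated replicate 2, Mbd3 differed by −0.23. Mbd2, Mbd4 and Uhrf1 differed by 0.18, 0.27 and 0.12 and did not reach that p.

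Zbtb2, which in mouse embryonic stem cells binds promoters in unmethylated CpG islands, was the lowest of the members relative to untreated cells. On its representative probe set (10361635) it read 5.49 and 5.85 with VPA, against 6.25 and 6.09 in untreated cells, a difference of −0.50 ± 0.16 (unadjusted p = 0.029, adjusted p = 0.504). The annotation pairs a second probe set (10480027) with the same gene and the same transcripts. There the values were 5.55 and 5.16 with VPA, against 6.33 and 6.30 in untreated cells, a 1.94-fold lower level (−0.96 ± 0.16, unadjusted p = 0.0020, adjusted p = 0.462). The groups did not overlap on either probe set. The VPA arrays disagreed in order, replicate 1 being the lower on the first probe set and replicate 2 on the second. The sources used here do not say whether the probe sets share probes or whether the second one matches a related locus. The probe sets were therefore not counted as independent, and the second may not measure Zbtb2 alone. Averaging them made Zbtb2 a member at least 1.5-fold lower without overlap, and without VPA replicate 1 the representative probe set differed by −0.32.

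The means of the 3 LRF family members were lower with VPA, though only Zbtb7a reached an unadjusted p under 0.05. Zbtb7a (LRF, also called Pokemon), a repressor with roles in blood cell fate and fetal globin silencing, read 4.57 and 4.90 with VPA and 5.12 and 5.29 in untreated cells. Its difference was −0.48 ± 0.16 (unadjusted p = 0.030, adjusted p = 0.504), and −0.31 without VPA replicate 1. Zbtb7c had 3.57 and 3.52 in VPA cells, against 3.79 and 3.71 in untreated cells (−0.21 ± 0.11), without overlap but close to the bottom of the members' levels. For Zbtb7b (ThPOK), the factor that directs thymocytes to the helper T cell fate, the groups overlapped, with 5.16 and 5.30 with VPA and 5.19 and 5.41 in untreated cells.

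Of 8 further members known from blood and immune lineages, Zbtb7b included and Zbtb7a not, 0 were higher and 1 was lower at an unadjusted p under 0.05. Over all measured genes 5.9% were higher and 2.71% lower at that p. Zbtb16 (PLZF), a repressor that maintains germ line stem cells and shapes innate-like lymphocytes, had 3.58 and 3.44 with VPA and 3.91 and 3.76 in untreated cells. That is a difference of −0.32 ± 0.12 (unadjusted p = 0.045, adjusted p = 0.532) at a level near the median of the array. The untreated mean of Zbtb16, 3.83, lay under that of the background yardstick Cd3e, 4.86. Its unadjusted limma p was 0.063 with trend and robust moderation and 0.061 with a replicate block. Zbtb17 (Miz1), which binds Myc and activates inhibitors of the cell cycle when free of it, read 6.18 and 5.98 in VPA cells and 6.12 and 6.17 in untreated cells (−0.065 ± 0.12). Zbtb24, mutated in a human immunodeficiency with loss of DNA methylation, had 5.16 and 5.23 with VPA and 4.93 and 5.18 in untreated cells, a difference of 0.14 ± 0.13 carried mostly by untreated replicate 1. Zbtb46, a marker of classical dendritic cells, had 4.46 and 4.32 with VPA and 4.58 and 4.30 in untreated cells. Of the remaining lymphoid regulators, Zbtb1 differed by 0.068 ± 0.14, Zbtb25 by 0.18 ± 0.14 and Zbtb32 by 0.11 ± 0.14.

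The members linked to telomeres in human cells, Zbtb48 (TZAP), Zbtb10 and Zbtb40, had lower means with VPA without reaching an unadjusted p under 0.05. Zbtb40 came nearest, with 4.93 and 4.76 in VPA cells and 5.17 and 5.10 in untreated cells (−0.29 ± 0.12, unadjusted p = 0.058). Zbtb48 differed by −0.18 ± 0.14. Zbtb10 had the widest replicate gap of the family: it read 7.13 and 7.44 with VPA, but 7.66 and 6.99 in untreated cells, so its difference of −0.045 ± 0.26 turned to 0.29 without untreated replicate 1.

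Zbtb21 was the remaining lower member at that p, with 6.71 and 6.56 in VPA cells, against 6.96 and 6.94 in untreated cells (−0.32 ± 0.11, unadjusted p = 0.039, adjusted p = 0.527). Zbtb34, a little-studied member, was the remaining higher one. It read 6.43 and 6.37 with VPA, against 5.92 and 6.10 in untreated cells (0.40 ± 0.12, unadjusted p = 0.022, adjusted p = 0.504). Zbtb26 lay just outside the threshold (unadjusted p = 0.053), with 5.80 and 5.63 in VPA cells and 5.47 and 4.99 in untreated cells. Its difference of 0.49 ± 0.19 was 0.25 without untreated replicate 2.

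**Figure D2:**
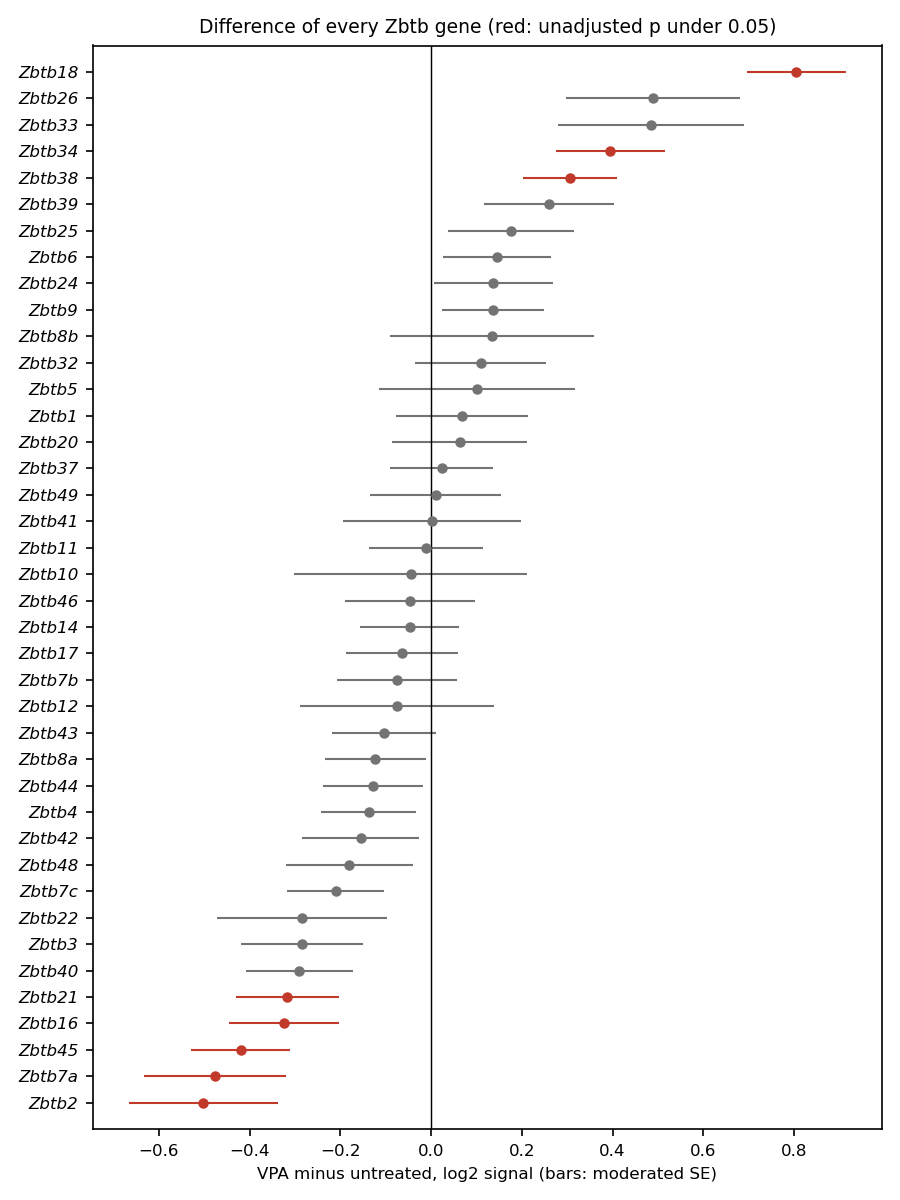
VPA minus untreated difference on the log2 scale (points) with its moderated SE (bars) for each of the 40 Zbtb genes, ordered by size; red marks an unadjusted limma p under 0.05. Differences run from −0.50 (Zbtb2) to 0.81 (Zbtb18), and 16 of the 40 lie within 1 SE of 0.

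For the 32 members not reaching an unadjusted p of 0.05, differences lay between −0.29 and 0.49, and 15 were above and 17 below 0. Of all 40, 18 had a higher and 22 a lower mean with VPA. Their median difference was −0.046, beside 0.015 over all measured genes. The groups did not overlap at any fold for 8 higher and 14 lower members, 20% and 35% of the 40, where 24.1% and 18.1% of all measured genes did the same. Besides those named above, the higher genes without overlap were Zbtb6 (0.14), Zbtb9 (0.14) and Zbtb39 (0.26), and the lower ones Zbtb3 (−0.28), Zbtb8a (−0.12), Zbtb43 (−0.10) and Zbtb44 (−0.13). At 1.5-fold or more without overlap there was 1 higher member, Zbtb18, and 0 lower, and the shares over all measured genes were 0.973% and 0.266%. At 1.2-fold or more without overlap there were 5 higher and 7 lower of the 40 members. Of the 19938 measured genes, 2055 higher (10.3%) and 1085 lower (5.44%) did the same. Overlap was seen for Zbtb5, Zbtb8b, Zbtb12, Zbtb14, Zbtb22, Zbtb37, Zbtb41 and Zbtb49 among the members not described elsewhere, whose differences lay between −0.28 (Zbtb22) and 0.13 (Zbtb8b). The members' median difference varied with the arrays used. Leaving out VPA replicate 1 or 2 gave −0.014 or −0.049, and leaving out untreated replicate 1 or 2 gave −0.091 or −0.043. Over all measured genes the same fits gave 0.0085 or 0.024, and 0.012 or 0.022. Scaling mattered for the split between directions. After a second quantile normalization 2 members were higher and 6 lower at an unadjusted p under 0.05. The split over all measured genes was then 863 higher and 745 lower, against 1177 and 540 on the deposited values.

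Typical differences in the family were no wider than those between replicates. The median absolute difference between the VPA and untreated means was 0.14 over the members. The median absolute difference between replicate arrays was 0.15 with VPA and 0.17 in untreated cells, and a difference of single arrays is by construction noisier than one of 2-array means. Over all measured genes the corresponding values were 0.12, 0.12 and 0.14.

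In untreated cells most members gave a signal above the middle of the array. As percentiles of the 35556 probe sets, their untreated means had a median of 66.5 and ran from 36.9 to 93.7, and 37 of the 40 lay above the median probe set. Signals of different probe sets depend on their probes as well as on RNA level, so a percentile places a probe set on the array and does not rank genes by abundance. Zbtb44 was at the top, with 8.86 and 8.95 in VPA cells and 9.07 and 8.998 in untreated cells (percentile 93.7). After it came Zbtb11, at 8.06 and 8.05 with VPA and 8.18 and 7.95 in untreated cells (88.9), then Zbtb10 (84.1) and Zbtb45 (81.7). Neighbours in this order did not all separate, since the replicates of Zbtb10 alone spanned 6.99 to 7.66 in untreated cells.

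Zbtb20, a regulator of hippocampal and liver development, was the lowest, at 3.10 and 3.42 with VPA and 3.17 and 3.22 in untreated cells (percentile 36.9). Zbtb4 (48.3), Zbtb7c (49.1) and Zbtb16 (50.5) followed. As a yardstick for background, 8 blood and lymphoid markers, which embryonic stem cells should lack, lay between percentiles 23.7 (Cd79a) and 63.2 (Cd3e). The second highest of them was Cd8a at 3.57. Zbtb20 was the 1 member at or under that value, while 12 members lay at or under Cd3e at 4.86, Zbtb18 in untreated cells among them. No detection calls were used here, so members in that range cannot be told apart from background by level.

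**Figure D3:**
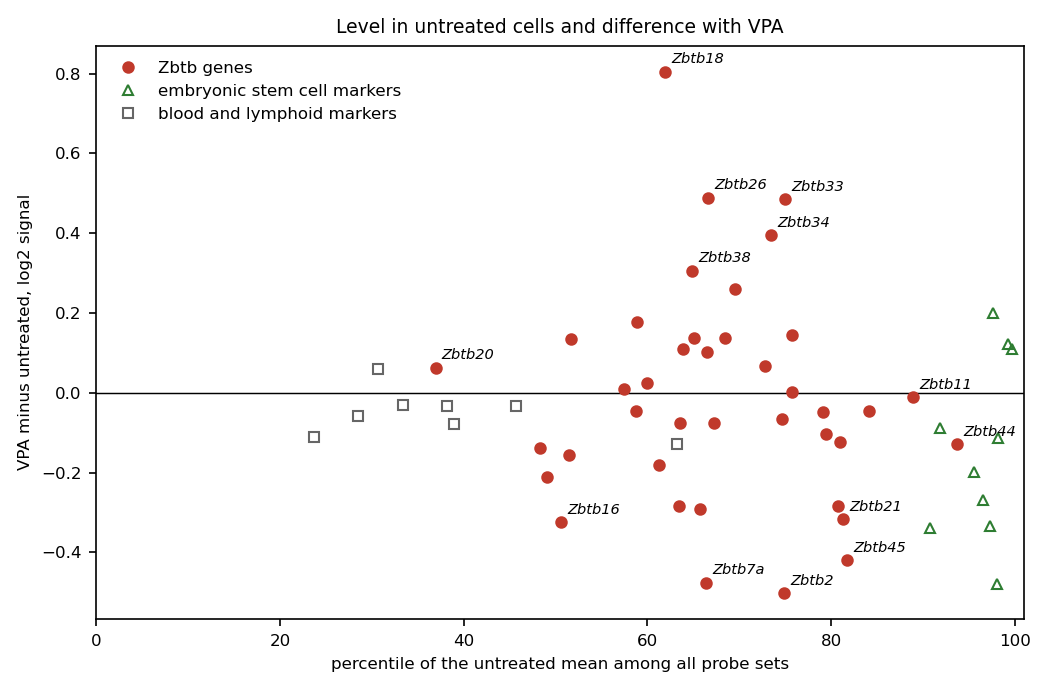
Percentile of the untreated mean among all probe sets (x axis) against the VPA minus untreated difference on the log2 scale (y axis) for the 40 Zbtb genes (filled circles), 10 embryonic stem cell markers (open triangles) and 8 blood and lymphoid markers (open squares). The Zbtb genes spread from percentile 36.9 to 93.7, mostly between both marker sets, and Zbtb18 has the largest difference among the genes drawn.

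Of the 3 members with a second probe set, Zbtb2 kept its direction and the other two did not. The second Zbtb44 probe set (10584067) read 6.23 and 6.55 with VPA and 6.51 and 6.04 in untreated cells, a difference of 0.12 ± 0.21, while the brighter one gave −0.13 ± 0.11. The second Zbtb20 probe set (10435769) read 3.15 and 2.78 with VPA and 3.08 and 3.03 in untreated cells, a difference of −0.087 ± 0.16, while the brighter one gave 0.063 ± 0.15. These differences were smaller than their SE or close to it.

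Several members are neighbours in the genome, by the gene order of RefSeq. Zbtb25 and Zbtb1 both lay slightly above untreated cells, at 0.18 and 0.068. Zbtb6 and Zbtb26 were also both above, at 0.14 and 0.49. Zbtb34 and Zbtb43 went opposite ways, at 0.40 and −0.10, and so did Zbtb8a and Zbtb8b, at −0.12 and 0.13. Apart from Zbtb34, no gene in these pairs reached an unadjusted p under 0.05.

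BTB zinc finger genes that carry other symbols included a larger difference than any Zbtb gene showed. Of 8 measured, 2 were higher and 1 lower at an unadjusted p under 0.05, beside 5.9% and 2.71% of all measured genes. Bcl6b, a relative of the germinal centre repressor Bcl6, had 6.01 and 5.94 with VPA, against 5.14 and 4.86 in untreated cells, a 1.97-fold higher level (0.98 ± 0.14, unadjusted p = 0.00089, adjusted p = 0.462). Gzf1, a repressor induced by the growth factor GDNF, had 6.28 and 6.32 in VPA cells, against 5.77 and 5.65 in untreated cells (0.59 ± 0.11, unadjusted p = 0.0034). Patz1, which in mouse supports embryonic stem cell identity, was lower, at 6.89 and 6.99 with VPA against 7.20 and 7.40 in untreated cells (−0.37 ± 0.13, unadjusted p = 0.033). Bcl6 itself sat at percentile 38.0 and differed by −0.029 ± 0.12. The median of the 8 was 0.034, beside 0.015 over all measured genes. Nacc1 and Nacc2, which pair a BTB domain with a BEN domain and have no zinc fingers, differed by −0.16 ± 0.17 and 0.028 ± 0.14.

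The list of corepressors of BTB zinc finger proteins also holds subunits of corepressor complexes and the ubiquitin ligase scaffold Cul3. Its 14 measured genes lay between percentiles 58.4 and 97.6 in untreated cells, with a median of 89.6. The lowest, Bcorl1, was under Cd3e, the highest of the blood markers, in untreated cells. At an unadjusted p under 0.05, 4 of the 14 were higher and 1 lower, beside 5.9% and 2.71% of all measured genes. The counts became 2 higher and 3 lower after a second quantile normalization and 1 each with the replicate number as a block. Bcor, which docks on the BTB domain of Bcl6, read 4.43 and 4.54 with VPA, against 5.30 and 4.87 in untreated cells (−0.60 ± 0.18, unadjusted p = 0.020). Its relative Bcorl1 went the other way, with 4.92 and 4.89 in VPA cells and 4.22 and 4.61 in untreated cells (0.49 ± 0.16, unadjusted p = 0.030). Without untreated replicate 1 the difference was −0.38 for Bcor and 0.30 for Bcorl1. The scaffold Sin3a was higher by 0.39 ± 0.12, the deacetylase Hdac3 by 0.30 ± 0.11 and the CoREST subunit Rcor1 by 0.31 ± 0.11. Hdac1 and Hdac2 differed by 0.14 and 0.19, and Cul3, the ubiquitin ligase scaffold that BTB proteins can bind, by 0.12 ± 0.26. Tbl1x (−0.30 ± 0.12), Ctbp2 (−0.27 ± 0.11) and Ctbp1 (−0.15 ± 0.10) were lower without overlap but did not reach an unadjusted p under 0.05. Means were higher with VPA for 8 of the 14 genes and lower for 6. The list's median was 0.13, beside 0.015 over all measured genes. The NCoR and SMRT genes were not analysed here.

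Around Miz1, Myc and Mycn were lower with VPA, while Zbtb17 itself hardly differed. Myc had 6.97 and 6.81 with VPA, against 7.35 and 7.70 in untreated cells (−0.64 ± 0.16, unadjusted p = 0.011). Mycn had 8.16 and 8.11 with VPA, against 8.83 and 8.81 in untreated cells (−0.68 ± 0.10, unadjusted p = 0.0013). Mxi1, a Max partner that opposes Myc, was 0.31 ± 0.12 above untreated cells (unadjusted p = 0.0496), but its unadjusted p was 0.106 after a second quantile normalization and 0.0565 after median centring. Max differed by 0.26 ± 0.12 and Mxd1, another antagonist, by 0.17 ± 0.12, and neither reached an unadjusted p under 0.05. Of 10 genes measured in this list, 1 was higher and 2 lower at an unadjusted p under 0.05. The shares over all measured genes were 5.9% and 2.71%. The adjusted p of each relative and partner named here was at least 0.462.

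**Figure D4:**
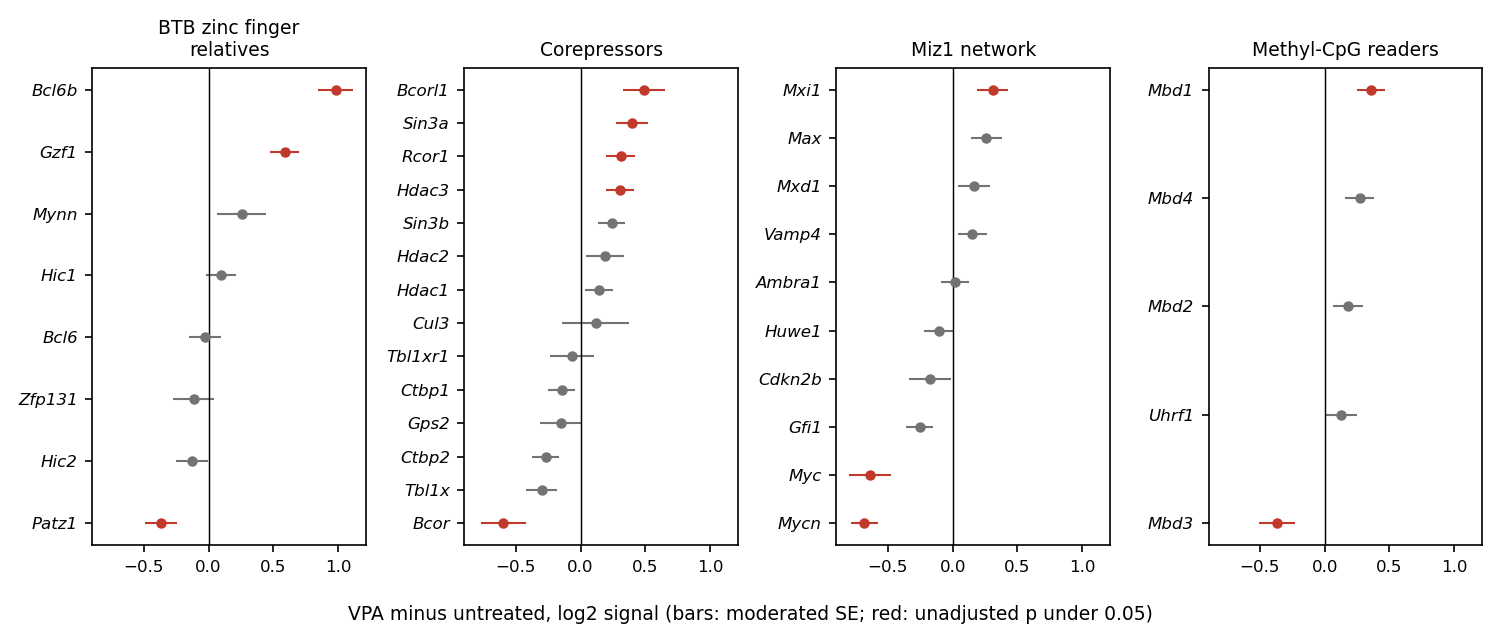
VPA minus untreated difference on the log2 scale (points) with its moderated SE (bars) for BTB zinc finger relatives with other symbols, corepressors (drawn with Cul3), the Miz1 network and other methyl-CpG readers. Red marks an unadjusted limma p under 0.05. Bcl6b lies farthest above 0, at 0.98, and Mycn farthest below, at −0.68.

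The label of the cells was checked against 10 embryonic stem cell markers, which lay between percentiles 90.7 and 99.7. Their summed log2 signal was 101.7 to 102.3 in the VPA arrays and 102.9 to 103.8 in the untreated arrays, with 7 of 10 lower on average. Nanog (−0.48), Utf1 (−0.33) and Lin28a (−0.34) were lower at an unadjusted p under 0.05. The 14 fibroblast markers measured ran from Lum at percentile 1.55 to Sparc at 94.1, with a median of 63.5, near Cd3e at 63.2. Their summed log2 signal was 70.3 to 71.3 in VPA arrays and 71.5 to 72.3 in untreated arrays, with 11 of 14 lower on average, and the marker Thy1 was the 1 higher at an unadjusted p under 0.05. No marker value was 0, since the deposited signals start at 1.41. In a bulk sample fewer cells of a type and less RNA per cell cannot be told apart, and the part of feeder RNA in the Zbtb values was not tested. Between arrays, Pearson's r over probe sets was 0.988 to 0.993, and untreated replicate 2 stood farthest from the VPA arrays.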

How the data were processed

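The authors deposited a log2 signal for each probe set on each array. Per the submitters' processing notes, Affymetrix Expression Console 1.1 and RMA produced it. Its background correction, quantile normalization and probe summary can shrink small differences, and the sources used here do not say which arrays were normalized jointly. Gene names came from the platform annotation: 21789 of 35556 probe sets had 1 symbol, 1621 several and 12146 none, and RefSeq (GRCm38.p6) gave the same symbol for the 40 members. Arrays have no read depth, and their number limits the precision.

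The deposited values were tested without further normalization in R 4.3.3 with limma 3.58.1 (lmFit, then eBayes) over all probe sets, treatment as the only term, two-sided, Benjamini-Hochberg adjusted at 0.05. There were 2 residual degrees of freedom and a prior of 2.93. An exact permutation test of 2 against 2 cannot give a p below 0.333. SD is over the arrays of a group and SE is limma's. The script was tested on simulated data.

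Genes given with all values were those at an unadjusted p under 0.05 or at least 1.5-fold apart without overlap, the 4 highest and 4 lowest by untreated percentile, those whose probe sets differ in sign, and 10 well-studied members. A few more (Zbtb7b, Zbtb7c, Zbtb26, Zbtb40, Zbtb42) were chosen after their values were seen. Members, motifs and gene lists were chosen with earlier results of these data known. Nacc1 and Nacc2 were set apart from the BTB zinc finger relatives afterwards because they lack zinc fingers. The labels do not say whether replicate numbers pair the arrays. Same-numbered arrays deviated with a correlation of −0.097 over probe sets, which cannot settle it with 2 arrays per group. Alternatives were a second quantile normalization, median centring, brighter probe sets only, trend and robust moderation, a replicate block, a 1.2-fold limit, the mean of a gene's probe sets, and each array left out.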

Additional observations from a re-analysis of the deposited data

How the results depend on the processing

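Under each alternative limma called 0 probe sets, while 1177 genes were higher and 540 lower before adjustment on the deposited values. Without each array in turn, the members at an unadjusted p under 0.05 numbered 1 to 3 higher and 0 to 3 lower, those at least 1.5-fold apart without overlap 1 to 3 higher and 0 to 2 lower, and the median difference ran from −0.091 to −0.014; a lone array is then assumed to vary like the others. With a replicate block, 2 members were lower at that p, and it changed no adjusted call. Among the other BTB zinc finger genes, corepressors, Miz1 network and methyl-CpG readers, the block left 2, 1, 0 and 1 higher and 1, 1, 2 and 0 lower at that p. A second quantile normalization moved the members' median difference to −0.099. Averaging a gene's probe sets gave 1 member at least 1.5-fold lower. A 1.2-fold limit gave 5 higher and 7 lower of the 40 members, where 10.3% and 5.44% of all measured genes passed it. Of the 40 members, 26 kept their sign under every alternative run, the 8 of unadjusted p under 0.05 among them. For these 8 that was largely fixed in advance and is no support. Their groups do not overlap, so leaving out 1 array cannot reverse the sign. The block, the moderation and the limit to brighter probe sets leave a difference unchanged by construction. The 14 members that reversed differed by at most 0.13 over all arrays. Among the reversals, the second normalization gave −0.0043 for Zbtb37, −0.074 for Zbtb41 and −0.00029 for Zbtb49, median centring −0.0037 for Zbtb41, and the mean over probe sets −0.012 for Zbtb20. Without 1 array, the difference ranged from −0.069 to 0.21 for Zbtb1, −0.17 to 0.37 for Zbtb5, −0.19 to 0.036 for Zbtb7b, −0.15 to 0.42 for Zbtb8b, −0.38 to 0.29 for Zbtb10, −0.13 to 0.10 for Zbtb11, −0.34 to 0.19 for Zbtb12, −0.17 to 0.039 for Zbtb17, −0.10 to 0.23 for Zbtb20, −0.018 to 0.24 for Zbtb32, −0.047 to 0.094 for Zbtb37, −0.20 to 0.20 for Zbtb41, −0.19 to 0.095 for Zbtb46 and −0.10 to 0.13 for Zbtb49. On the second probe sets it ranged from −0.27 to 0.098 for Zbtb20 and −0.12 to 0.36 for Zbtb44. The cause of these reversals was not tested.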
